A study of Mus musculus with 6 samples.

Results

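The 46 genes described here encode the core machinery of macroautophagy and its cargo receptors. They were followed in mouse bone marrow-derived macrophages that were WT or carried a conditional knockout of Tmem175. They were named by step of the pathway, with no threshold on a measured value, and all 46 were found among the 55421 genes of the count table. The list holds 5 genes of the initiation complex, 7 of the nucleation complex, 7 lipid transfer proteins and PI3P effectors, 11 conjugation genes, 5 genes of the ATG8 family, 5 cargo receptors and 6 fusion genes. RNA was sequenced from 6 wells of primary macrophages, which are cells grown from marrow progenitors. In 3 wells the cells were Tmem175flox/flox Lyz2-Cre+/-, called knockout here, and in the other 3 they were WT. Cre recombinase under Lyz2 acts in myeloid cells. The labels give no age, no stimulation and no separate animals. Spread and p-values below therefore describe variation among wells, and that variation may be technical. No libraries with Cre alone or with floxed alleles alone were analysed. Lower Tmem175 therefore cannot be told apart from the presence of Cre, the altered Lyz2 locus or a difference in background.

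In macroautophagy, cytoplasmic material is enclosed by a growing double membrane that closes into an autophagosome and fuses with the lysosome. The ULK kinase complex starts the process, the PIK3C3 lipid kinase complex marks the membrane with PI3P, WIPI proteins read that mark, and ATG2 and ATG9 supply lipid. A ubiquitin-like conjugation system then attaches ATG8 proteins to the membrane, where they hold cargo receptors such as SQSTM1, before SNARE proteins and tethers join the vesicle to the lysosome. TMEM175 is a cation channel of the lysosomal and late endosomal membrane, the compartment in which autophagy ends. Macrophages use the same proteins to degrade organelles and intracellular bacteria and, with part of the set, to lipidate single membranes after phagocytosis. Several steps are served by more than one paralogue, which is why the levels below are first given within families.

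The ATG8 proteins are made as precursors, and ATG4 proteases cut each one after a glycine that is later joined to a membrane lipid. The last 30 coding bases of the 5 mouse genes are shown because the precursors differ there in what ATG4 removes. Sequences are from GENCODE M21 transcripts on GRCm38, 5′ to 3′ on the coding strand and ending with the stop codon, and the capitals mark the codon of that glycine.
Map1lc3a: tacgcctcccaagaaaccttcGGCttctga
Map1lc3b: gagacattcGGGacagcaatggctgtgtaa
Gabarap: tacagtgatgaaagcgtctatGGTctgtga
Gabarapl1: tacagtgatgaaagtgtctatGGAaaatga
Gabarapl2: tacagcggagagaacacttttGGCttctga

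The glycine is codon 120 in Map1lc3a and Map1lc3b and codon 116 in the 3 genes of the GABARAP subfamily. In Map1lc3b it is followed by 5 codons before the stop, against 1 codon in each of the other 4. Over their whole coding sequences Map1lc3a and Map1lc3b shared 74.7% of bases, Gabarap and Gabarapl1 shared 74.9%, and pairs taken across the LC3 and GABARAP subfamilies shared between 50.6% and 55.2%. The genes lie on 4 chromosomes: Map1lc3a at chr2:155276297-155278073, Gabarapl1 at chr6:129533160-129542346, Gabarapl2 at chr8:111940703-111953612, Map1lc3b at chr8:121590361-121598760 and Gabarap at chr11:69991143-69994951, all on the plus strand.

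Total counts ranged from 24179548 to 31542741 per library. The 46 genes together took 0.402%, 0.427% and 0.410% of them in knockout replicates 1 to 3 and 0.392%, 0.385% and 0.396% in WT. These shares of raw counts, taken before the scaling used below, did not overlap between genotypes. Without that scaling, the median log2 fold change of knockout over WT was 0.064 for the 46 and 0.042 for all genes tested. An upward shift before scaling was therefore not particular to the 46. Tmem175 itself, the targeted gene, stood at 14.3, 13.2 and 12.1 CPM, a gene's count relative to the library total after TMM scaling in edgeR, in knockout replicates 1 to 3, against 32.8, 33.4 and 33.2 CPM in WT. Its log2 fold change was -1.33 (SE 0.07, edgeR adjusted p = 6.01e-05), so every knockout library was lower than every WT library, with transcript still counted. Macrophage markers summed to 9271 to 10128 CPM in knockout and 9177 to 10263 CPM in WT, with all 8 detected. The 8 neutrophil markers summed to 692 to 741 CPM in knockout and 400 to 592 CPM in WT. The 4 markers of mast cells and basophils (Cpa3, Mcpt8, Ms4a2 and Prss34) summed to 5.44 to 12.2 CPM against 12.9 to 20.1 CPM. In both lists the ranges do not overlap, although edgeR called none of these genes. The sum of the second list does not separate mast cells from basophils. The neutrophil sum is carried by S100a8 and S100a9, with log2 fold changes of 0.70 (edgeR adjusted p = 0.0521) and 0.61 (edgeR adjusted p = 0.152). Without them the other 6 markers summed to 237 to 269 CPM in knockout and 154.4 to 246.5 CPM in WT, which overlap. Of these 6, Ngp (0.47), Ltf (0.36), Ly6g (0.29) and Camp (0.15) had positive log2 fold changes. Mpo (-0.76, edgeR adjusted p = 0.446) and Elane (-0.44) had negative ones. The part of these markers in the values below was not tested. In such bulk libraries, fewer cells of a type and less RNA per cell cannot be told apart. Summed levels of the dendritic, B, T and NK, erythroid and stromal lists overlapped between genotypes and reached at most 38.1 CPM in any library.

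Transcripts of all 46 genes were present in every library, but at very unequal levels. For comparison between genes, levels are given as TMM-scaled CPM per kilobase of exon (CPM per kb), the mean ± SD of 6 libraries. Gabarap was highest at 258 ± 9.42 CPM per kb, followed by Sqstm1 at 177 ± 12.4, Gabarapl1 at 56.7 ± 2.09 and Vamp8 at 43.9 ± 1.78. Atg16l2 was lowest at 1.63 ± 0.07 CPM per kb (Atg4d with the mean coding transcript), and the highest level was 158 times the lowest. Gabarap and Sqstm1 took the first and second rank with each of the 3 gene lengths tried (all annotated exons, the longest transcript, the mean coding transcript), while many lower ranks changed with the length. The mean coding transcript averages every transcript annotated as protein coding, with no filter for complete ones, so short models can raise a level. By step, the median level was 27.4 CPM per kb for the ATG8 family, 23.2 for fusion, 16.7 for the cargo receptors and 12.9 for the initiation complex. It was 9.72 CPM per kb for the nucleation complex, 5.21 for the lipid transfer and PI3P effectors and 5.18 for conjugation. The ATG8 family had the highest median with all 3 lengths, but conjugation stood above the lipid transfer genes with both other lengths, and the cargo receptors above fusion with the mean coding transcript. Between the highest and lowest member there were 2.03 times in the nucleation complex and 5.94 in the initiation complex, an order that turned with the mean coding transcript (5.08 and 2.65). The cargo receptors were the most uneven step with all 3 lengths, at 23.3, 20.4 and 30.2 times.

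**Figure D1:**
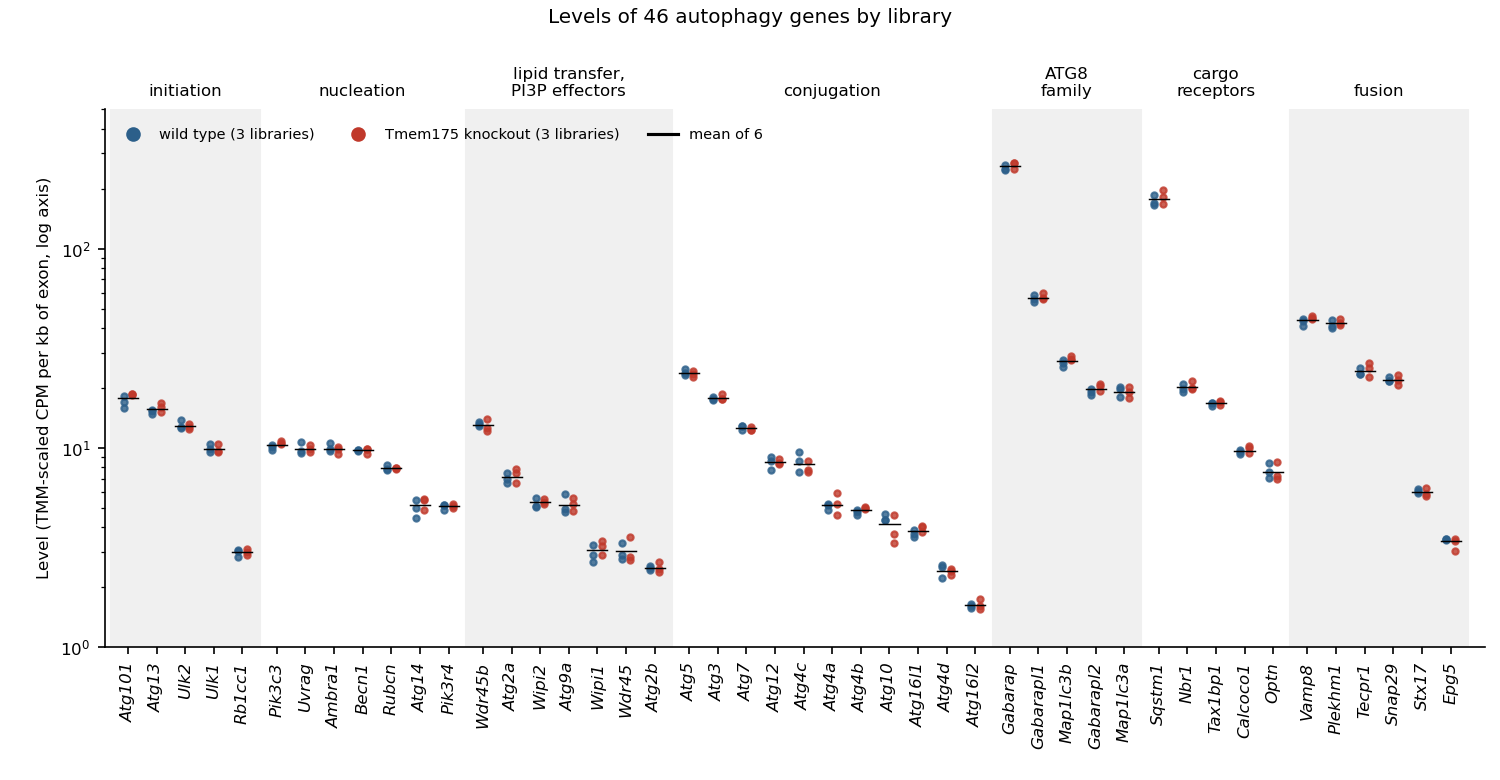
Level of each of the 46 autophagy genes (vertical axis, TMM-scaled CPM per kb of exon, log axis), ordered by step and by level, with 1 point per library for 3 wild type (blue) and 3 knockout (red) libraries and a bar at the mean of 6. Gabarap and Sqstm1 stand at 258 and 177 CPM per kb, and within each gene the blue and red points lie close together.

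Within the ATG8 family, Gabarap was the main transcript per length. Its share of the family's summed CPM per kb was 67.9%, 66.9% and 68.4% in knockout replicates 1 to 3 and 66.5%, 68.3% and 68.3% in WT, so it held the largest share in all 6 libraries. Gabarapl1 came next at 14.9% ± 0.55 (SD, n = 6), Map1lc3b, the LC3 isoform most used as an autophagosome marker, at 7.19% ± 0.29, Gabarapl2 at 5.17% ± 0.18 and Map1lc3a at 5.03% ± 0.28. Gabarapl2 was above Map1lc3a in 5 of 6 libraries and their levels overlapped, while each other pair of neighbours in this order was separated in every library. The GABARAP subfamily together held 87.8% ± 0.64 in knockout and 87.8% ± 0.36 in WT (n = 3 each). The length used matters for second place: with the mean coding transcript, Map1lc3b passed Gabarapl1 at 16.5% against 16.2%, Gabarap held 60.9% and the subfamily 80.6% in knockout and 80.9% in WT. Processed pseudogenes of Map1lc3b and Gabarapl2 share at least 96.5% of aligned bases with them, and each held at most 22.3 counts per library on average, against 5553 for Map1lc3b and 1234 for Gabarapl2. Reads that fit both copies cannot be told apart in these counts.

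At the start of the pathway, the kinases Ulk1 and Ulk2 were expressed at similar levels. Ulk2 stood at 12.9 ± 0.49 CPM per kb and Ulk1 at 9.93 ± 0.43, with Ulk2 higher in 6 of 6 libraries and a share of 56.5% ± 1.18. That order holds for all exons and for the longest transcript (52.1% Ulk2), but with the mean coding transcript Ulk1 held 52.2%, so the data give no settled order for the pair. The non-catalytic subunits were uneven: Atg101, which stabilises ATG13, stood at 17.8 ± 1.11 CPM per kb, Atg13 at 15.6 ± 0.70 and the scaffold Rb1cc1 at 3.00 ± 0.11. Rb1cc1 stood at 16.4 CPM per kb with the mean coding transcript, because its annotated exons sum to 14690 bases and its coding transcripts average 2684. Its longest transcript has 7607 bases and gives 5.79 CPM per kb, so much shorter models enter that average.

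Among the lipid transfer proteins, Atg2a was the more abundant ATG2 at 7.19 ± 0.48 CPM per kb, against 2.51 ± 0.10 for Atg2b. Its share of 74.1% ± 0.84 ranged from 73.1% to 75.2% over the 6 libraries and was 66.0% and 60.6% with the other lengths, so Atg2a led with each. Of the WIPI genes, Wdr45b (WIPI3) led with 13.0 ± 0.63 CPM per kb and a share of 53.3% ± 2.08. Wipi2, the member that recruits ATG16L1, held 21.8% ± 0.34, and Wipi1 and Wdr45 (WIPI4) held 12.5% ± 0.82 and 12.4% ± 1.29 with overlapping levels. Wdr45b led in all 6 libraries and with all 3 lengths. Gene models on the same strand, each with 0 counts, share 24.7% of the exon bases of Wdr45 and 31.8% of those of Atg9a, and how reads there were assigned is not known. Atg9a, the lipid scramblase carried on vesicles, stood at 5.21 ± 0.47 CPM per kb. Its own paralogue Atg9b, which is outside the list of 46, stood at 1.41 CPM in knockout and 1.31 CPM in WT, against 30.02 and 29.97 CPM for Atg9a.

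Among the ATG4 proteases, which both prime ATG8 precursors and release ATG8 from membranes, no member dominated. Atg4c held 39.8% ± 2.64, Atg4a 24.9% ± 1.93, Atg4b 23.5% ± 1.11 and Atg4d 11.7% ± 0.88 of the family's CPM per kb. Atg4b, the protease with the broadest activity on ATG8 proteins, took first place with the longest transcript (34.98%) and with the mean coding transcript (56.2%), while Atg4d was last with all 3. Kri1, on the opposite strand, overlaps 19.3% of the exon bases of Atg4d and held 455 counts per library on average against 473, so the Atg4d level is uncertain. A retroposed copy, Atg4a-ps, is 99.4% identical to Atg4a over 1191 bases and held 3.33 counts per library on average, against 370.5 for Atg4a. For the scaffold of the LC3 ligase, Atg16l1 stood at 3.84 ± 0.19 CPM per kb and its paralogue Atg16l2 at 1.63 ± 0.07. The Atg16l1 share was 70.1% ± 1.41 and was 82.1% and 82.0% with the other lengths. The remaining conjugation genes have no paralogue in the list: Atg5 stood at 23.8 ± 0.81 CPM per kb, the E2 enzyme Atg3 at 17.8 ± 0.44, the E1 enzyme Atg7 at 12.6 ± 0.30, the ubiquitin-like Atg12 at 8.50 ± 0.44 and the E2 enzyme Atg10 at 4.18 ± 0.52.

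**Figure D2:**
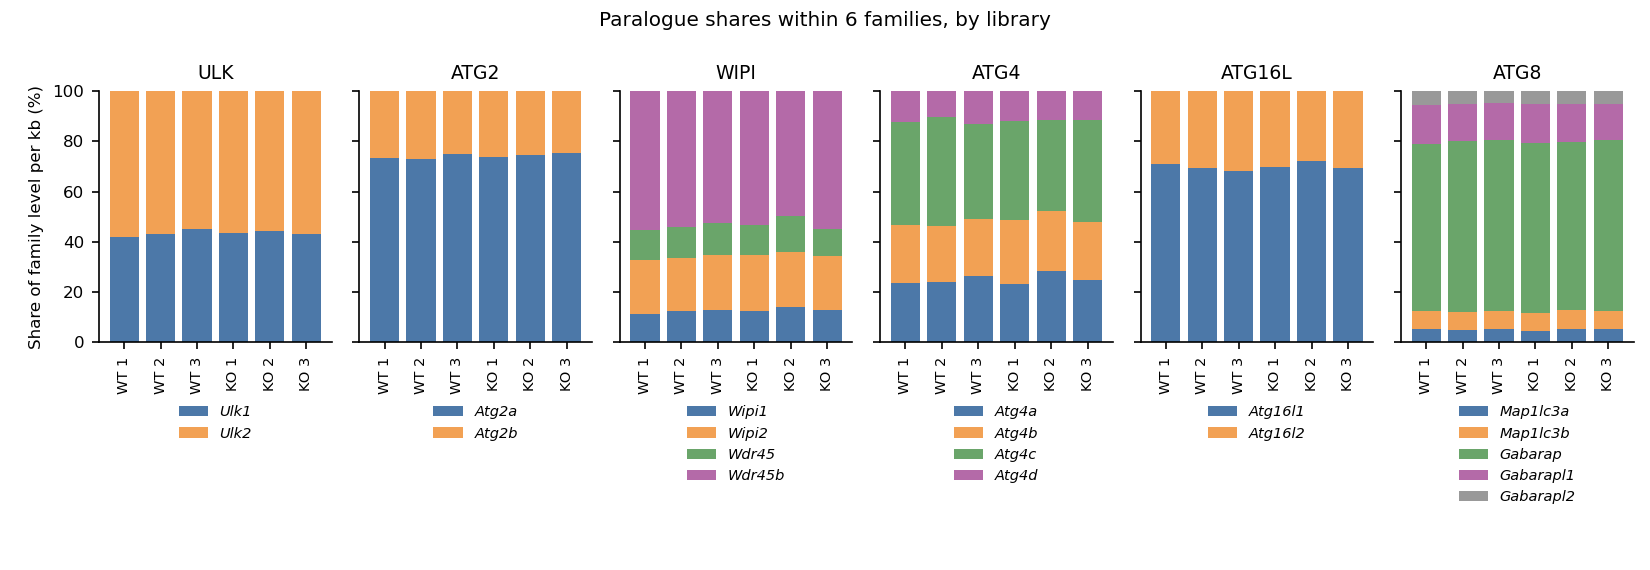
Share of each paralogue in its family's summed CPM per kb (vertical axis, percent) in each of 6 libraries, for 6 families, with WT 1 to 3 as the wild type and KO 1 to 3 as the knockout libraries. Gabarap fills 66.5% to 68.4% of the ATG8 family in every library, and the coloured bands keep similar heights across genotypes in all 6 families.

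Cargo receptors and fusion genes are not close paralogues of one another and are given by level. Sqstm1 (p62), which links ubiquitinated cargo to ATG8, stood at 177 ± 12.4 CPM per kb, and Nbr1 at 20.2 ± 0.96. Tax1bp1 stood at 16.7 ± 0.34, Calcoco1 at 9.71 ± 0.32 and Optn at 7.61 ± 0.65 CPM per kb. Tax1bp1 passed Nbr1 with both other lengths, at 39.4 against 28.9 CPM per kb with the longest transcript and 128 against 41.9 with the mean coding transcript. In the fusion step the SNARE Vamp8 (43.9 ± 1.78 CPM per kb) and the Rab7 effector Plekhm1 (42.1 ± 1.80) were highest, followed by the tether Tecpr1 (24.5 ± 1.39) and the SNARE Snap29 (22.0 ± 0.86). Tecpr1 stood at 61.2 CPM per kb with both other lengths, above Plekhm1 in each and above Vamp8 with the longest transcript. Stx17, the autophagosomal syntaxin that pairs with Snap29 and Vamp8, stood at 6.03 ± 0.22, and the tether Epg5 at 3.40 ± 0.18 CPM per kb.

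The second question was whether any of these levels differed between knockout and WT. All 46 genes passed the filter on low counts and were tested with edgeR's quasi-likelihood test, with Benjamini-Hochberg adjustment over 13588 genes. It called 0 of the 46 at an adjusted p under 0.05, and 0 had an unadjusted p under 0.05. Of all genes tested, 0.103% were called (14 genes, 2 higher and 12 lower in knockout), so a count of 0 in 46 is near the background. DESeq2 and limma-voom also called 0 of the 46, with 0 at an unadjusted p under 0.05 in each. The smallest adjusted p was 0.939, for Atg101.

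The intervals say how large a difference the data still allow. The 95% interval of the knockout to WT ratio lay within 1.5-fold in either direction for 46 of the 46 genes, against 73.9% of all genes tested. It lay within 1.2-fold for 41 of the 46 (89.1%), against 48.6% of all genes. The members are well expressed, and precision follows abundance: of the 8726 genes within their range of mean CPM, 98.0% had intervals within 1.5-fold. The fitted log2 fold changes ran from -0.19 to 0.12, with a median of 0.02, against -0.0009 over all genes tested. Their median absolute value was 0.034, against 0.046 over genes in the same range of CPM. Of the 46, 29 had a positive (63%) and 17 a negative fold change, against 49.6% positive over all genes tested. Over the 15 alternative fits described at the end, the number positive ran from 26 with upper-quartile scaling to 43 with library totals.

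**Figure D3:**
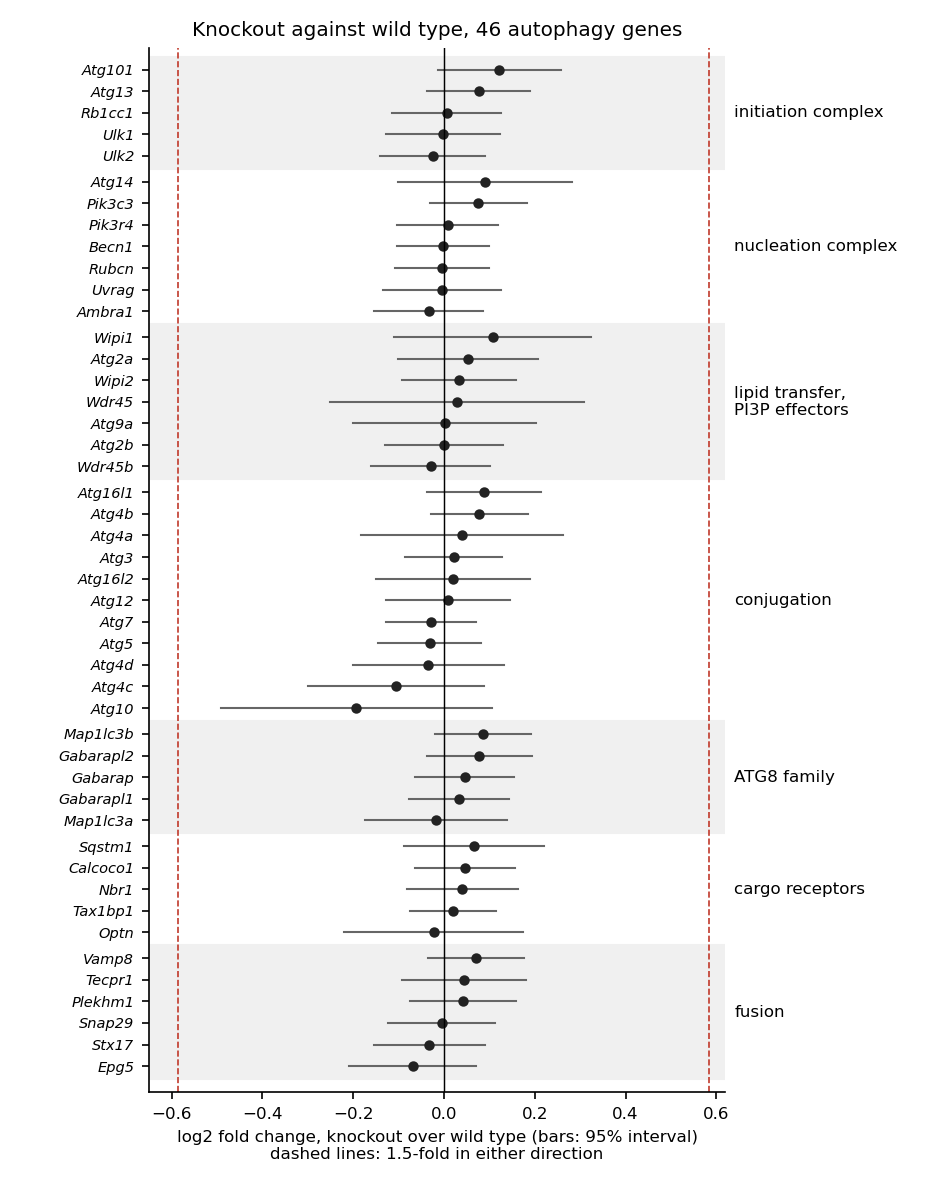
Log2 fold change of knockout over wild type (horizontal axis) for the 46 genes by step, from edgeR over 3 libraries per group, with bars for the 95% interval and dashed lines at 1.5-fold. Every bar crosses 0, and the widest, that of Atg10, reaches -0.49.

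In 4 of the 46 genes the 3 knockout libraries all stood above the 3 WT libraries, and in 0 of the 46 they all stood below. Over all genes tested the shares were 5.73% and 5.06%, so 4 of 46 is near the background as well. The 4 were Atg101, Pik3c3, Atg4b and Map1lc3b, from 4 steps. None of them reached an unadjusted p of 0.05.

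In the initiation complex, Atg101 had the smallest p of all members. It stood at 29.9, 29.7 and 29.4 CPM in knockout replicates 1 to 3 and at 27.3, 25.4 and 29.1 CPM in WT, so the highest WT library nearly reached the knockout range. Its log2 fold change was 0.12 (SE 0.06, edgeR adjusted p = 0.939). Ulk1 was measured at 62.2, 68.2 and 62.6 CPM in knockout and 63.9, 61.9 and 67.6 CPM in WT, and Ulk2 at 74.4, 78.5 and 76.4 CPM against 82.4, 75.0 and 75.9 CPM. Both kinases overlapped between genotypes, with log2 fold changes of -0.002 (SE 0.06) and -0.02 (SE 0.05). Atg13 was at 0.08 (SE 0.05) and Rb1cc1 at 0.01 (SE 0.05).

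In the nucleation complex the lipid kinase Pik3c3 stood at 47.0, 47.1 and 48.3 CPM in knockout and at 43.6, 45.1 and 46.4 CPM in WT. The groups did not overlap, but the gap between them was smaller than the spread within WT. Its log2 fold change was 0.08 (SE 0.05, edgeR adjusted p = 0.966). The other subunits and regulators were the scaffold Becn1, the pseudokinase Pik3r4, the autophagy-specific Atg14, the endosomal Uvrag, the inhibitor Rubcn and the Becn1 partner Ambra1. Their log2 fold changes ran from -0.03 for Ambra1 to 0.09 for Atg14, and each overlapped between groups. Becn1 was at 68.6 ± 2.13 CPM in knockout and 68.7 ± 0.63 CPM in WT (n = 3 each). On the opposite strand Cntd1 overlaps 43.9% of its exon bases but held 3.17 counts on average, against 1848 for Becn1.

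Among the lipid transfer and PI3P genes, Wipi1 had the smallest p. It was at 12.8, 15.0 and 14.2 CPM in knockout and 11.8, 12.9 and 14.4 CPM in WT, which overlap, with a log2 fold change of 0.11 (SE 0.10, edgeR adjusted p = 0.968). Wdr45b, the highest of the step, was at 57.3, 55.8 and 63.7 CPM in knockout and 59.9, 58.9 and 61.5 CPM in WT, so its knockout values lay on both sides of WT. Atg2a stood at 51.3, 60.2 and 57.6 CPM in knockout and 54.1, 51.4 and 57.5 CPM in WT. For Atg2b the values were 31.98, 36.0 and 33.2 CPM in knockout and 34.4, 33.0 and 33.8 CPM in WT. Both ATG2 genes overlapped between genotypes, with log2 fold changes of 0.05 (SE 0.07) and 0.0003 (SE 0.06). Wipi2, Wdr45 and Atg9a were between 0.001 and 0.03, with the widest interval of these for Wdr45 (-0.25 to 0.31), the member with about 10 CPM.

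In the conjugation system, the protease Atg4b stood at 41.6, 41.7 and 41.2 CPM in knockout and 39.3, 40.5 and 38.1 CPM in WT. The groups were separate by less than the spread within WT, and the log2 fold change was 0.08 (SE 0.05, edgeR adjusted p = 0.961). Atg5, the highest of the step per kb of all exons but below Atg3 with both other lengths, was at 55.1, 53.6 and 57.4 CPM in knockout and 55.9, 54.9 and 58.9 CPM in WT, with overlap. Atg16l1 was at 36.4, 39.2 and 38.6 CPM in knockout and 37.5, 35.5 and 34.4 CPM in WT, and Atg16l2 at 13.7, 13.2 and 14.9 CPM against 13.4, 13.7 and 14.0 CPM. Both scaffolds overlapped, with log2 fold changes of 0.09 (SE 0.06) and 0.02 (SE 0.08). The lowest value of the 46 belonged to Atg10, the E2 enzyme for ATG12, at -0.19 (SE 0.13). It stood at 7.93, 5.76 and 6.39 CPM in knockout and 7.51, 7.48 and 7.99 CPM in WT, so knockout replicate 1 lay among the WT values and the other 2 lay below them. Without that replicate its log2 fold change was -0.33 with an edgeR adjusted p of 0.504. Over the 15 alternatives the smallest adjusted p of any member ran from this value to 0.9999. The other 6 conjugation genes lay between -0.10 (Atg4c) and 0.04 (Atg4a).

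In the ATG8 family, Map1lc3b was measured at 208, 218 and 210 CPM in knockout and 200, 192 and 208 CPM in WT. Its lowest knockout library and highest WT library were nearly level, and the log2 fold change was 0.09 (SE 0.05, edgeR adjusted p = 0.95). Gabarap was at 493, 461 and 497 CPM in knockout and 457, 464 and 485 CPM in WT, with overlap and a log2 fold change of 0.05 (SE 0.05). Gabarapl1 was at 120, 114 and 113 CPM against 118, 109 and 112 CPM. Gabarapl2 was at 48.5, 45.1 and 47.5 CPM against 46.01, 44.6 and 43.1 CPM. Map1lc3a was at 21.1, 22.6 and 23.8 CPM against 23.3, 21.2 and 23.8 CPM. The 3 genes overlapped between genotypes, at 0.03 (SE 0.05), 0.08 (SE 0.05) and -0.02 (SE 0.07), and the interval of every ATG8 gene lay within 1.2-fold.

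Of the cargo receptors, Sqstm1 was at 559, 656 and 611 CPM in knockout and 565, 555 and 624 CPM in WT. Its lowest knockout value fell among the WT values, and the log2 fold change was 0.07 (SE 0.07, edgeR adjusted p = 0.972). Leaving out knockout replicate 2 gave 0.01, and leaving out knockout replicate 1 gave 0.13. Sqstm1 is transcribed under stress and its protein is consumed by autophagy, and only the transcript was measured here. Nbr1, Calcoco1, Tax1bp1 and Optn lay between -0.02 and 0.05 and overlapped between groups. In the fusion step, Vamp8 was at 102, 104 and 106 CPM in knockout and 94.3, 99.6 and 103 CPM in WT, with overlap and a log2 fold change of 0.07 (SE 0.05, edgeR adjusted p = 0.967). Plekhm1, Tecpr1, Snap29 and Stx17 lay between -0.03 and 0.04. Epg5 was at -0.07 (SE 0.06), with 33.3 ± 2.52 CPM in knockout and 35.01 ± 0.28 CPM in WT.

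Paralogue use was compared between genotypes through 16 shares, with 1 share for each family of 2 genes. An exact two-sided permutation test over 3 against 3 libraries cannot go below p = 0.1, so no share could pass 0.05. The Atg4b share of the ATG4 family was the only one whose groups did not overlap, at 25.5%, 24.1% and 23.4% in knockout and 22.9%, 22.4% and 23.0% in WT. The difference was 1.56 percentage points (exact p = 0.1, adjusted over 16 shares 0.96). With all exons the largest difference was that of Atg4c, which held 38.6% ± 2.28 in knockout and 41.0% ± 2.87 in WT (n = 3 each), a difference of -2.32 points with overlapping groups. With the mean coding transcript Atg4b differed most, by 2.08 points, against -1.92 for Atg4c. Gabarap held 67.7% ± 0.78 and 67.7% ± 1.04.

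After TMM scaling, the members' small shared deviations did not split the libraries by genotype. Before scaling, their share of total counts was higher in every knockout library than in every WT library. The TMM factors of the libraries did not overlap either, at 1.000, 1.033 and 1.013 in knockout replicates 1 to 3 and 0.992, 0.992 and 0.971 in WT. The median log2 deviation of the 46 genes from their own means was 0.030, 0.023 and 0.024 in knockout replicates 2 and 3 and WT replicate 3, and -0.014, -0.016 and -0.037 in knockout replicate 1 and WT replicates 1 and 2. The first principal component of all genes tested split the libraries the same way, with scores of 12.3, 7.20 and 7.58 in the former 3 and -5.17, -12.3 and -9.66 in the latter. The second component did split them by genotype, with scores of -8.97, -4.66 and -4.87 in knockout replicates 1 to 3 and 2.33, 2.78 and 13.4 in WT. What these components stand for was not tested.

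**Figure D4:**
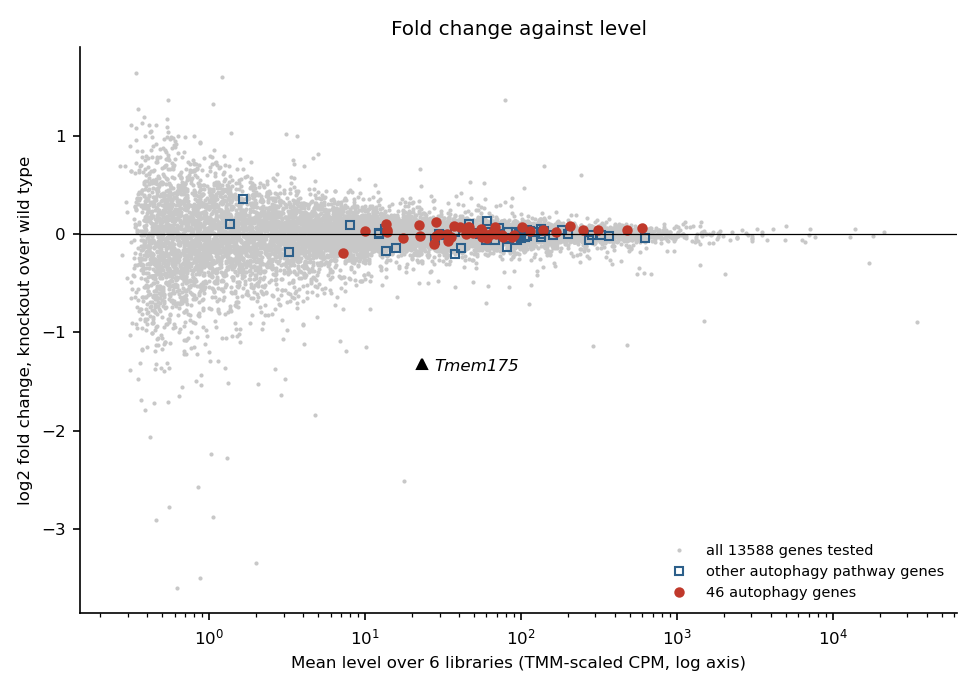
Log2 fold change of knockout over wild type (vertical axis) against mean TMM-scaled CPM over 6 libraries (log axis) for 13588 genes (grey), the 46 autophagy genes (red), other autophagy pathway genes (blue squares) and Tmem175 (triangle). The red points lie between -0.19 and 0.12, and Tmem175 lies at -1.33.

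A further 52 genes of the pathway outside the 46 were listed, covering organelle receptors, accessory factors, tethering and SNARE partners, and upstream regulators. The filter removed the ER-phagy receptor Ccpg1 (0.306 CPM in knockout, 0.205 CPM in WT), and 51 were tested. edgeR called 0 of the 51, while 1 was higher and 2 were lower at an unadjusted p under 0.05. DESeq2 and limma-voom called 0 as well, with 1 and 3 at an unadjusted p under 0.05. The 3 knockout libraries all stood above WT in 2 of the 51 and all below in 5, beside the 5.73% and 5.06% of all genes tested. The median log2 fold change was 0.0003, with 26 positive and 25 negative.

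Among the accessory factors, Tecpr2, which binds ATG8 proteins, stood at 34.9 CPM in knockout and 40.1 CPM in WT (log2 fold change -0.20, SE 0.07, edgeR adjusted p = 0.863). Zfyve1 (DFCP1), which marks the ER sites where autophagosomes form, stood at 62.9 CPM and 57.4 CPM (0.13, SE 0.05, edgeR adjusted p = 0.908). Of the organelle receptors, the mitophagy receptor Bcl2l13 was at -0.14 (SE 0.06, edgeR adjusted p = 0.908) and Nufip1, a ribophagy receptor, at -0.14 (SE 0.07). All 4 had groups that did not overlap, and none passed the adjusted threshold. In the other lists the smallest p belonged to Rab7 (-0.04, SE 0.05) and Ykt6 (-0.03, SE 0.04) among tethers and SNAREs, and to Zkscan3, a repressor of autophagy genes (0.10, SE 0.06), and Rptor, a subunit of mTORC1 (-0.06, SE 0.04), among the regulators. Tfeb, the factor that induces lysosomal and autophagy genes, stood at 73.6 CPM in both groups.

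TFEB and its relatives bind an E-box, and lysosomal promoters often carry the extended form TCACGTGA. RefSeq promoter windows on GRCm38.p6, 300 bases from 250 before to 50 after the start of a gene, matched 38 of the 46 genes in 43 windows. CACGTG lay in 5 of the 43 windows (11.6%: Atg3, Atg5, Atg7, Atg14 and Rubcn), against 7.15% of all 32851 windows. TCACGTGA, which contains CACGTG, lay in 1 window, that of Atg3, against 0.974% of all windows, and both motifs read the same on both strands. The Atg3 match starts 72 bases before the RefSeq start of the gene. GENCODE M21, used for the other coordinates, starts Atg3 nearer to the match, at 45158785. It is shown as the single full match, with the motif in capitals, at chr16:45158746-45158775 on the plus strand.
Atg3 promoter: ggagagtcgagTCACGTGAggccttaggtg

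Atg3 was at 58.7, 55.4 and 55.7 CPM in knockout and 55.2, 57.0 and 55.1 CPM in WT, overlapping, with a log2 fold change of 0.02 (SE 0.05). The 5 genes with CACGTG had log2 fold changes from -0.03 to 0.09 with a median of -0.004, and the 33 matched genes without it had a median of 0.03. A match describes these letters in this window and does not show that a factor binds there.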

How the data were processed

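RNA libraries of 6 wells (3 knockout, 3 WT) were made with a SMARTer kit, per the labels' protocols. The authors deposited raw counts per Ensembl gene. The submitters' processing notes name HISAT2, featureCounts and GRCm38. The sources used here do not state versions, annotation release, strand setting or treatment of multimapping reads, so reads of overlapping or near-identical genes cannot be told apart. Symbols, exon lengths and coordinates came from GENCODE M21 (GRCm38), with 55240 IDs matched and 181 not, which held at most 0.00172% of counts.

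All genes were fitted in edgeR 4.0.16 (R 4.3.3) with TMM scaling, filterByExpr and the quasi-likelihood test. Benjamini-Hochberg adjustment ran over all 13588 genes kept, and calls were made at 0.05. The common biological coefficient of variation was 0.0744. Intervals use the moderated degrees of freedom. Levels per length are TMM-scaled CPM over the summed length of annotated exons. TPM had been planned, but sums to a constant that composition shifts between libraries. Shares within a family have the same value on both scales. Shares were compared with exact permutation tests. Coding sequences were compared with BLAST 2.17.0 (at least 95% identity over 100 bases). The code was tested on simulated data.

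Named genes were the ATG8 family, the highest member and the smallest p of each step, families of 2 genes, members with groups that do not overlap, and the 2 smallest p in each other list. Atg3, Atg10, Becn1, Epg5, Atg9b and Tfeb were given with values after these were seen. The members and lists were chosen with earlier results of these data known. Alternatives were other scalings, DESeq2 1.42.0, limma-voom 3.58.1, other filters and dispersions, a replicate block, other gene lengths and leaving out each library. Levels by step with other lengths, and neutrophil markers without S100a8 and S100a9, were added after seeing the data. Replicate pairs of 1 genotype differed by more than sampling noise (chi-square over degrees of freedom 3.87 to 19.9), so all 6 libraries were counted.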

Additional observations from a re-analysis of the deposited data

How the results depend on the processing

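The count of autophagy genes called was 0 of 46, and that of the other pathway genes 0, under each of the 15 alternative fits: the replicate block (0 and 0), 3 other scalings, DESeq2, limma-voom, other dispersions, 2 other filters and the fits without each library. At an unadjusted p under 0.05 the members numbered 6 with library totals, 1 without knockout replicate 1 and 3 without WT replicate 3, and 0 in the other alternatives. Library totals shifted the median of all genes from -0.0009 to 0.042 and gave 43 positive and 3 negative members, against 29 and 17, with a median of 0.064. Over all genes, DESeq2 called 10 higher and 30 lower and the fit with no filter 39 and 112, against 2 and 12. Without 1 library, 0 to 2 were higher and 4 to 10 lower. With 1 library left out, the log2 fold change ranged from 0.01 to 0.13 for Sqstm1 (lowest without knockout replicate 2, highest without knockout replicate 1), and for the following it was highest without WT replicate 3: Wipi1 (0.04 without WT replicate 1 to 0.19), Vamp8 (0.04 without WT replicate 1 to 0.10), Atg101 (0.07 without WT replicate 2 to 0.17), Map1lc3b (0.06 without WT replicate 2 to 0.11) and Pik3c3 (0.05 without WT replicate 1 to 0.10). Atg4b ranged from 0.06 without WT replicate 3 to 0.10 without WT replicate 2, and Atg10 from -0.33 without knockout replicate 1 to -0.09 without knockout replicate 2. Rab7 (-0.04) turned to 0.00167 with library totals and ranged from -0.0656 to 0.00749 when 1 library was left out, the highest without knockout replicate 2, and Ykt6 (-0.03) turned to 0.0140 with library totals. The number of the 16 shares with separate groups, 1 in the full data, ranged from 1 to 5 when 1 library was left out, with 5 without WT replicate 3, 3 without WT replicate 2 and 2 without WT replicate 1. With the replicate block, 2 shares had within-number differences of 1 sign. Groups separate more easily by chance with fewer libraries, and no background was computed for these counts of shares. Same-numbered libraries did not deviate together (correlations 0.057, -0.12 and 0.039). With deviations taken within groups of 3 libraries, this cannot decide whether same-numbered wells were prepared together, and the labels do not say. The widest intervals were those of Atg10 and Wdr45, the members near 7 and 10 CPM. The parts of depth and of spread among wells in their width were not tested.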
